A study of Homo sapiens with 2 samples.

Results

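Sites occupied by mTOR, the growth-controlling kinase that senses nutrients, were examined at 8 genes of the PML body and the SUMO pathway: PML, SP100, DAXX, ATRX, SUMO2, SUMO3, PIAS1 and RNF4. The cells were MDA-MB-231, a human cell line established from triple-negative breast cancer, kept in serum-containing medium with no treatment named in the labels. Chromatin immunoprecipitation followed by sequencing gave 1 mTOR library, and 1 input library served as the reference for peak calling. The 8 genes were chosen by name from 19974 protein-coding genes on chromosomes 1 to 22 and X. A peak belonged to a gene when the deposited annotation named that gene as nearest, or when the peak lay inside the gene's span whatever its name. Of 21440 peaks, 10 met this rule. There was no replicate, no read count and no control antibody among the data analysed here, so depth is unknown and every value below describes this 1 peak list, with no test.

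PML bodies are small nuclear structures built on the PML protein, which gathers SP100, the histone chaperone DAXX and its chromatin-remodelling partner ATRX. Their assembly rests on SUMO, a small protein that is attached to other proteins through an activating enzyme, a conjugating enzyme and ligases such as PIAS1, and is removed by SENP proteases. RNF4 is a ubiquitin ligase that recognises chains of SUMO2 or SUMO3, including those on PML, and marks the protein for degradation. The title of the series names PML and the transcription factor RONIN as nuclear partners of mTOR, so the members are the gene of a partner and genes of the pathway that organises its bodies.

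Peaks at the start site were found for SUMO2 and PIAS1, and the other members had none. A promoter peak is here a peak named for the gene that overlaps 1 kb either side of the assigned start site. By this rule 2 of the 8 members had a promoter peak, while 15.5% of all protein-coding genes did. As nearest gene of any peak, 5 of the 8 were named (SP100, SUMO2, SUMO3, PIAS1 and RNF4), beside 41.7% of protein-coding genes. A peak overlapped the gene span of 3 members (SP100, SUMO2 and PIAS1), beside 33.0% of protein-coding genes. These are counts over 8 genes and were not tested against the background. The spans of SP100 and PIAS1 are 129406 and 139533 bp and that of SUMO2 17374 bp, against a median of 24170.5 bp. Span length was not accounted for, here or in the gaps given below.

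**Figure D1:**
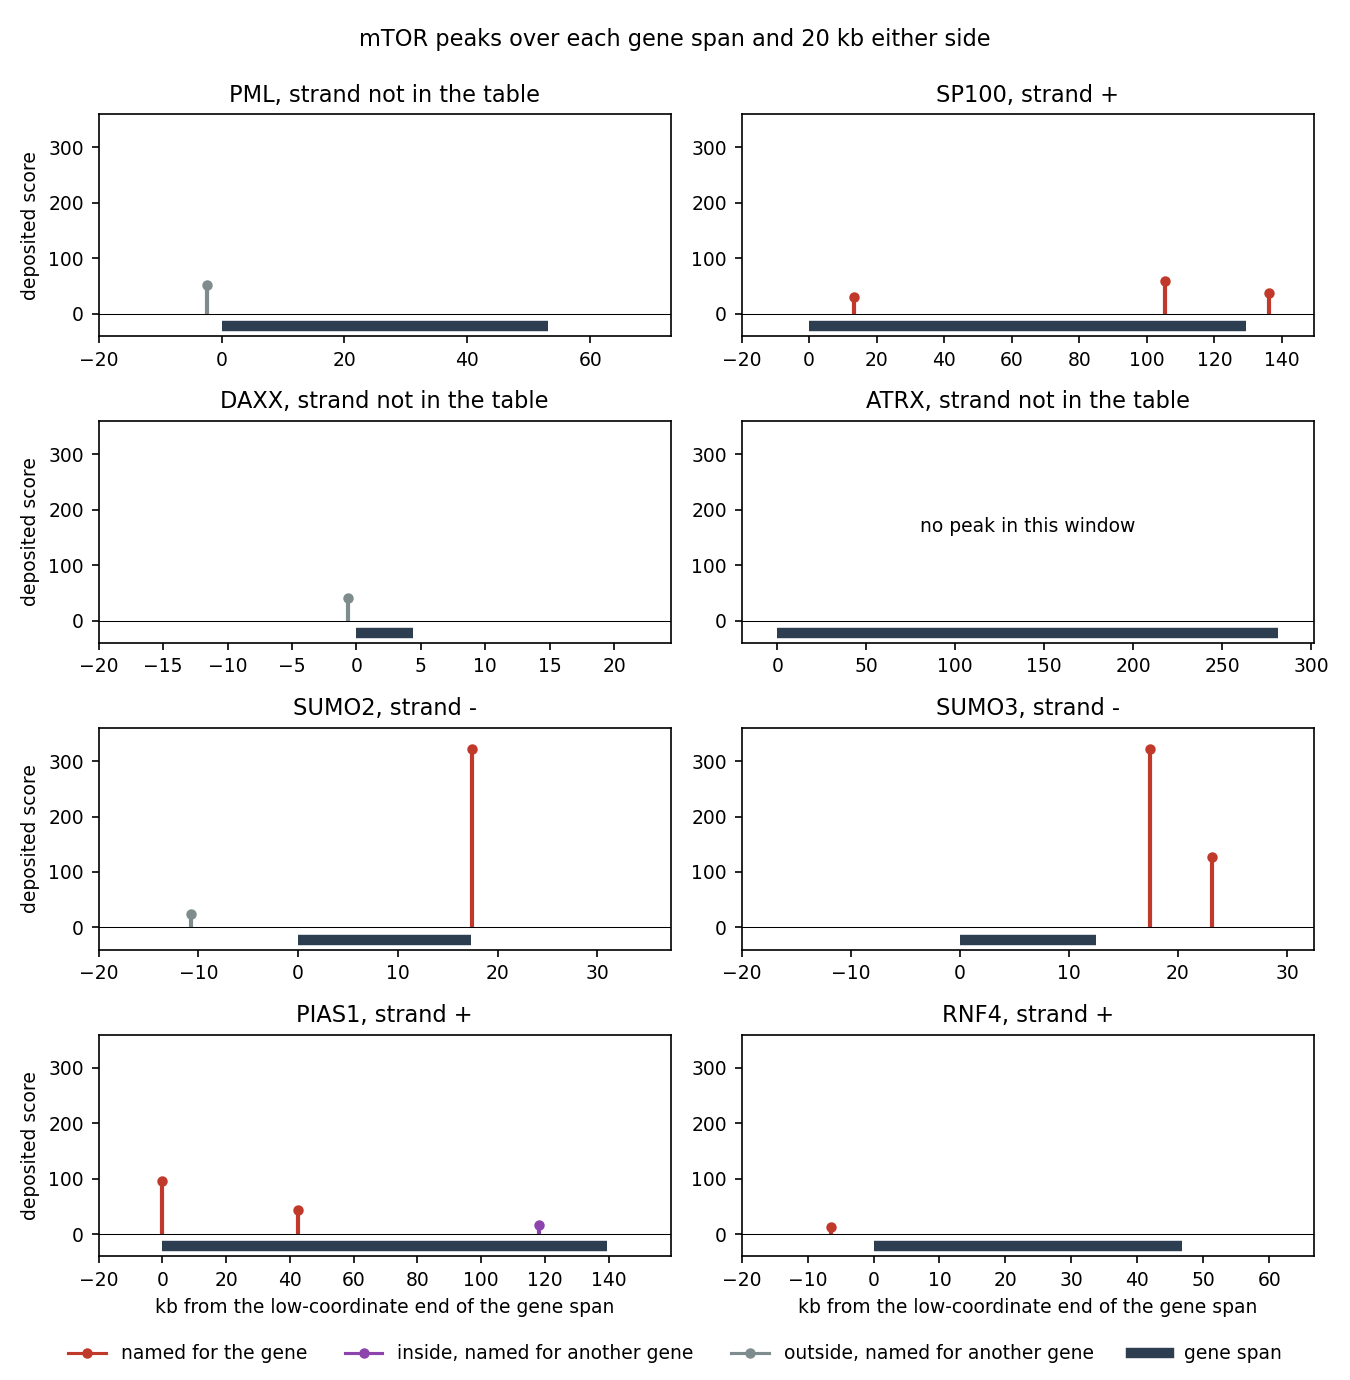
Each panel shows the span of 1 gene (dark bar) with 20 kb either side, in kb from the low-coordinate end of the span, and every mTOR peak there as a stem whose height is the deposited score. SUMO2 carried its peak at the start end, the 322 peak of SUMO3 lay upstream of the gene, and the panel of ATRX held no peak.

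The modifier genes came first by score. SUMO2 encodes the form of SUMO that is most often built into chains. Its peak covered chr17:75182640-75183441 on hg38, 802 bp wide and in the deposited promoter-TSS class, with its centre at -81 bp from the start (negative offsets are upstream). The score was 322, and 4.51% of all peaks scored as high or higher. Scores are the authors' values throughout, with no stated scale, and serve here only to rank peaks. Among the 3097 protein-coding genes with a promoter peak, SUMO2 ranked 133 by score, where the median gene had 58. The deposited label at the peak centre was the promoter, so whether a repeat lay there could not be read. In or within 100 kb of the gene lay 8 peaks, against a median of 2 for protein-coding genes. Among starts with a RefSeq promoter entry, which not all genes have, the nearest others were those of NUP85 and JPT1. They lay 22638 and 28528 bp from the peak centre.

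SUMO3 encodes a protein nearly identical to SUMO2 over most of its length, but its peaks stood away from the start. The nearer of its 2 peaks covered chr21:44822465-44823605, was 1141 bp wide and also had a score of 322. It was deposited as intergenic, with its centre at -4906 bp from the start and over an L1MEg element, an old LINE-1 copy. The second, at chr21:44828383-44829086, was 704 bp wide with a score of 127, lay at -10605 bp and was centred on an L1MEf element. Both were wider than the median peak of 400 bp. Thus the highest peaks named for SUMO2 and SUMO3 had the same score, which 25 peaks share. That of SUMO2 lay in its promoter, and that of SUMO3 lay outside the gene in old LINE-1 sequence upstream.

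PIAS1, a SUMO ligase that also regulates transcription factors, had 3 peaks at or in the gene. The promoter peak covered chr15:68053844-68054236, 393 bp wide, with a score of 96 and its centre at -139 bp from the start used by the deposited annotation. Relative to the RefSeq start of the longest span the centre was at -275 bp, and the peak ended 79 bp before that span. Of all peaks, 27.8% scored as high or higher. The nearest other starts with a RefSeq promoter entry, those of CALML4 and CLN6, lay 152070 and 175688 bp from the peak centre. A second peak named for PIAS1 lay in intron 2 of 13 at chr15:68096193-68097233, 1041 bp wide with a score of 44, over an L1M3 element and 42137 bp from the start. The third, in intron 8 of 13 at chr15:68172210-68172481, was 272 bp wide with a score of 17 and was centred on an L1PA6 element. The deposited table named it for CALML4, whose start was 33765 bp away, although it lies inside PIAS1.

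The promoters of SUMO2 and PIAS1 are printed because a peak lay on them, and that of SUMO3 because it is the closest relative of SUMO2 and had none. Each run is the 250 bases that end just before the RefSeq start on GRCh38.p14, read 5′ to 3′ on the strand of the gene. They are chr17:75182960-75183209 on the minus strand, chr15:68054065-68054314 on the plus strand and chr21:44818063-44818312 on the minus strand. Capitals mark matches to the GC box GGGCGG, the NF-Y motif CCAAT and the E-box CACGTG, on either strand.
SUMO2: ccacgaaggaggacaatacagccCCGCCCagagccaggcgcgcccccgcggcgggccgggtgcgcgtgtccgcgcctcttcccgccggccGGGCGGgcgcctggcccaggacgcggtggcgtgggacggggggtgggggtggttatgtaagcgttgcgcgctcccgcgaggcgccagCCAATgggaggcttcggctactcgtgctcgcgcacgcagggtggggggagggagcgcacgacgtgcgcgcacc
PIAS1: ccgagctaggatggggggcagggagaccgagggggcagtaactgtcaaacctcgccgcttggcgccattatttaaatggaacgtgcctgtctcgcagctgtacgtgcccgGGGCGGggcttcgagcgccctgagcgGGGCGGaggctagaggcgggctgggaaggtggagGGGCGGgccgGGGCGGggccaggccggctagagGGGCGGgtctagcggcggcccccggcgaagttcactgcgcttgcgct
SUMO3: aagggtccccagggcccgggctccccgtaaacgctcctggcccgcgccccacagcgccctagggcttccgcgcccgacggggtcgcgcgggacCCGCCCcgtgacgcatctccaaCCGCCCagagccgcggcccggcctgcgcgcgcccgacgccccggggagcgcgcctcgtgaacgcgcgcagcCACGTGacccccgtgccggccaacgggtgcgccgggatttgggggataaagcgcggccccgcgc
The SUMO2 peak covered all 250 bases of its run and the PIAS1 peak covered the first 172. SUMO2 held 2 GC boxes and 1 CCAAT, all under the peak, while PIAS1 held 5 GC boxes with 2 under the peak. SUMO3 held 2 GC boxes and 1 E-box. The GC box occurs in 55.8% of 15811 protein-coding promoters of the same length, in 67.0% of the 2575 of them with a promoter peak, and in all 5 members in the table. CCAAT occurs in 34.4% of the 15811 promoters and the E-box in 7.79%.

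The core shared by the RONIN and ZNF143 motifs, searched as TACANNTCC on either strand, was in none of the 5 member windows. It is in 4.21% of the 15811 promoters and in 7.57% of the 2575 with a promoter peak. Of 10 motifs searched, 6 others were likewise absent from the 5 windows. The cyclic AMP response element, searched as TGACGTCA, is in 2.29% of all promoters. The ETS motif, CCGGAAGT, is in 5.1% and the YY1 motif, AAGATGGC, in 1.41%. The motif bound by TBP, searched as TATAAA, is in 9.36%. The interferon-stimulated response element, GAAANNGAA, is in 6.1% and the interferon gamma activation site, TTCNNNGAA, in 6.12%. No 2 matches overlapped in these windows. A match describes the letters and no more, and a window without one says nothing of the factor.

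GC content did not separate members with a promoter peak from those without. It was 76.4% in the SUMO2 window and 70.8% in that of PIAS1, with 37 and 26 CpG dinucleotides. SUMO3, without a peak there, had 78.8% and 42, RNF4 had 61.2% and 27, and SP100 had 55.2% and 6. Over all 15811 promoters the median was 62.0% with 17 CpG, and over the 2575 with a promoter peak it was 65.2% with 21. The SP100 window was therefore the member furthest below the median and the SUMO3 window the furthest above it. PML, DAXX and ATRX had no entry in the promoter table.

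RNF4 had the weakest peak of the members. The peak covered chr4:2462437-2463004, 568 bp wide, with its centre at -6386 bp from the start and over a CpG island. Its score of 13 was the lowest in the whole table and was shared by 85 peaks. The deposited class was intron 15 of 15 of NM_001193282, and the peak lay inside the span of the neighbouring gene CFAP99, so the name RNF4 reflects the nearest start and not the gene body. No peak fell inside the 46752 bp span of RNF4 at chr4:2469106-2515857.

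Among the PML body genes proper, PML itself had no peak named for it and none inside its span at chr15:73994716-74047827. The nearest peak lay 2129 bp outside the low-coordinate end of that span, at chr15:73992242-73992587. It was 346 bp wide with a score of 52, in the promoter-TSS class, and was named for STOML1, with its centre at -66 bp from the STOML1 start. This score was below the median of 61 over all peaks, and 58.8% of peaks scored as high or higher. The gap of 2129 bp is shorter than the median of 12412 bp between a protein-coding gene and its nearest peak, and 61.9% of protein-coding genes had a larger gap.

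DAXX, which deposits the histone variant H3.3, also had no peak of its own. A peak at chr6:33317727-33318056, 330 bp wide with a score of 41, lay 502 bp outside the low-coordinate end of the DAXX span (chr6:33318558-33322959). The deposited table placed it in the promoter-TSS class of ZBTB22, the adjacent gene, 51 bp from that start. The gene table used here gives no strand for DAXX, so the end of DAXX nearer to this peak was not identified as its start or its end. Counting any peak within 1 kb of either end of a gene span, whatever its name, 3 of the 8 members had one (DAXX, SUMO2 and PIAS1), beside 19.2% of protein-coding genes.

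ATRX, the helicase that works with DAXX at repeats and telomeres, was the member furthest from any peak. No peak lay in its 281337 bp span at chrX:77504880-77786216 or within 100 kb of it. The nearest covered chrX:78075847-78076338, 492 bp wide with a score of 69, over an LTR10F element and named for PGK1. It stood 289631 bp from the span, and 6.02% of protein-coding genes had a larger gap. On the X chromosome, which held 143 peaks in all, the median gap was 240720 bp and 46.7% of protein-coding genes had a larger gap than ATRX. The distance of ATRX was therefore close to the middle of the genes on its own chromosome.

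**Figure D2:**
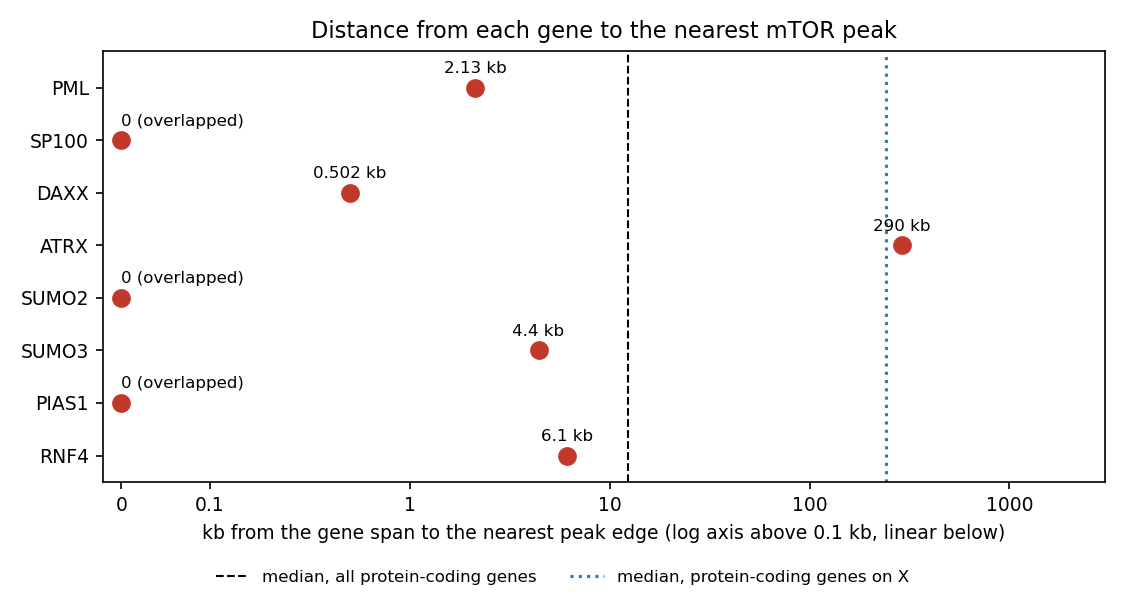
Points give the distance in kb from each gene span to the edge of the nearest mTOR peak, on an axis that is linear near 0 and logarithmic beyond, with medians over protein-coding genes as vertical lines. The 7 members outside the X chromosome lay between 0 and 6.10 kb, short of the median of 12.4 kb, and ATRX lay at 290 kb, beyond the X chromosome median of 241 kb.

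SP100, named for a nuclear autoantigen that is a constant part of PML bodies, had 3 peaks, all at repeats and none near the start. The first lay in intron 2 of 28 at chr2:230429443-230429719, 277 bp wide with a score of 30, over an L1ME3G element and 12825 bp from the start. The second lay in intron 24 of 28 at chr2:230521425-230521970, 546 bp wide with a score of 59, over the LOR1-int sequence of an ERV1 retrovirus and 104941 bp from the start. The third was intergenic at chr2:230552354-230552606, 253 bp wide with a score of 37, over an AluJo element, 6748 bp beyond the end of the span and 135724 bp from the start. All 3 scores were below the median of 61.

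The relatives of SP100 lie beside it on chromosome 2. SP110, SP140, SP140L and SP100 occupy 380 kb at chr2:230165186-230545606 and encode related chromatin readers. This block held 5 peaks with scores from 30 to 78, and all 5 were centred on repeats, beside 64.4% of all peaks. The repeats belonged to the L1 and ERV1 families. SP110 had a peak of score 64 over an L1PA4 element, 23048 bp from its start, which also lies in the overlapping span of SP140. SP140 had a peak of score 78 in intron sequence over an L1MCb element, 5304 bp from its start. The peak named for SP140L, with a score of 66, was intergenic and centred on an LTR19A element at -4438 bp. None of the 4 genes had a promoter peak.

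Taken as peaks rather than genes, the 10 peaks ran in score from 13 to 322, where all peaks ran from 13 to 5636. They had a median of 51.5, beside 61 for all peaks, and their median width was 557 bp, beside 400 bp. By deposited class 2 of the 10 were at promoters, 5 in introns and 3 intergenic, beside 13.0%, 37.8% and 43.6% of all peaks. Repeats lay under the centres of 7 of the 10, beside 64.4% of all peaks, and L1 elements under 5, beside 34.2%. Scores of the 7 repeat peaks ran from 17 to 322 with a median of 44. The promoter peaks of SUMO2 and PIAS1 and the RNF4 peak were labelled promoter or CpG island instead, so a repeat under them could not be read.

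**Figure D3:**
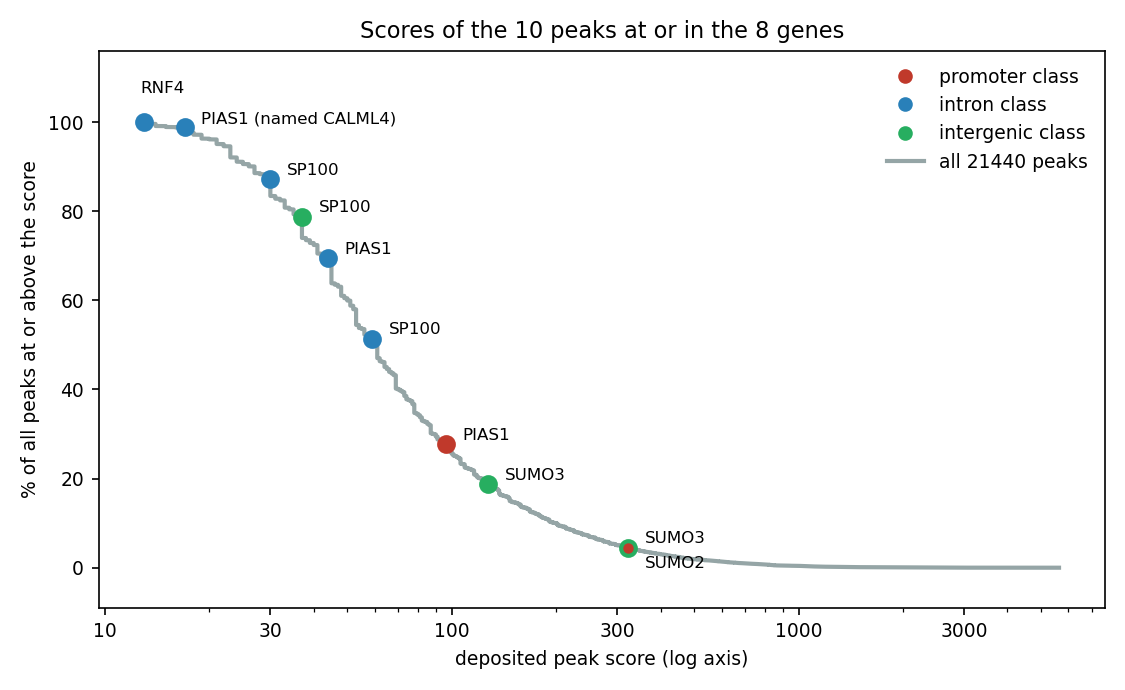
The line gives the share of all 21440 peaks at or above each deposited score (log axis), and points place the 10 peaks at or in the members on it, coloured by deposited class. SUMO2 (small red point) and the nearer SUMO3 peak (larger green point) share the score of 322, and RNF4 sits at the lowest score of 13.

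The rest of the pathway was read from a list of 44 genes in 6 roles that includes the 8 members. Promoter peaks were found for 7 of the 44 (15.9%, exact Clopper-Pearson 95% interval 6.64 to 30.1%), beside the 15.5% of all protein-coding genes. The 7 all belonged to the SUMO roles, as 7 of 25 genes (28.0%, 12.1 to 49.4%). Among 19 PML body components the count was 0, which allows a share of up to 15.8% by a limit of 3 counts and up to 17.6% by the exact interval, so the background share lies within it. At the background share 2.95 of the 19 and 3.88 of the 25 would have a promoter peak. The rule counts only peaks named for the gene, so the split by role depends on the naming. HIRA and BLM, both PML body components, and the protease gene SENP1 had peaks within 1 kb of their RefSeq starts under other names. The intervals cover counting error only, and the difference between the roles was not tested.

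Of the 7 genes with a promoter peak, 5 were ligases. They were 5 of 9 ligases, the highest share among the 6 roles, beside 15.5% of all protein-coding genes. The exact interval of 21.2 to 86.3% covers counting error only. It is not a test, because the lists were chosen with earlier results of these data known. It also describes the highest of 6 roles, so no enrichment is read from it. ZMIZ1, a coactivator with a PIAS-type zinc finger, was highest with a score of 194 and a centre at -262 bp, ahead of PIAS1 at 96. RANBP2, the SUMO ligase of the nuclear pore, had 61, ZMIZ2 had 44 and PIAS4 had 27. The RANBP2 peak was deposited in its exon 1, with a centre 154 bp downstream of the start. SAE1, a subunit of the enzyme that activates SUMO, had a score of 21 and a centre at -156 bp. All of these scores were below the 322 of SUMO2.

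ZMIZ1 was named for 6 peaks, and all 6 overlapped its span, the promoter peak only in part. The span of RANBP2, 108719482 to 109842301 on chromosome 2, overlapped 8 peaks, of which 1 was named for RANBP2 and 7 for other genes. That span is far longer than the median of 24170.5 bp, and its length was not accounted for. The 7 are therefore not read as peaks of RANBP2. The 4 intron peaks of ZMIZ1 without a repeat at the centre had scores of 23, 111, 120 and 173.

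**Figure D4:**
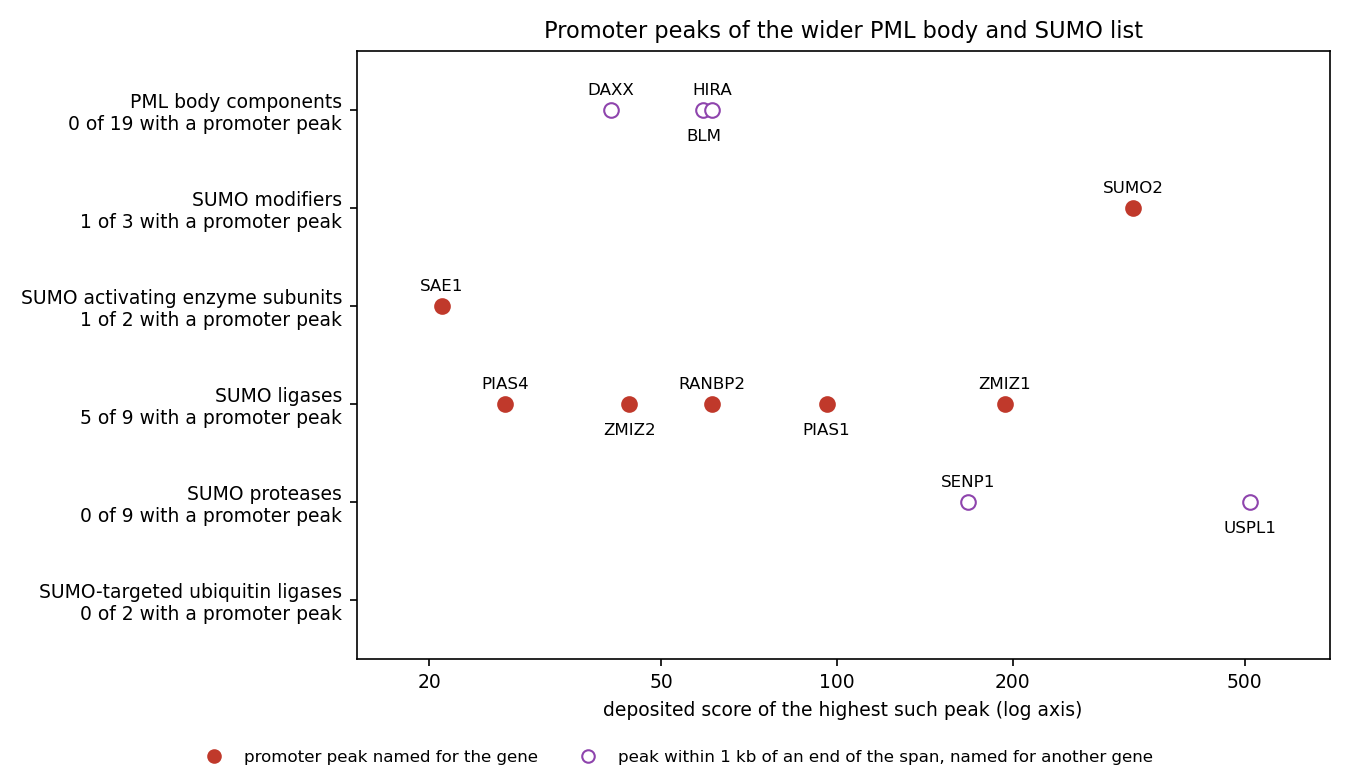
Filled points give the deposited score (log axis) of the highest promoter peak named for each gene of the 44, by role, and open points give peaks within 1 kb of an end of the gene span that were named for another gene. Filled points occur in the rows of modifiers, activating enzyme subunits and ligases, and the rows of PML body components and proteases hold open points only.

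Several genes of the list lay beside a peak that carried another name. A peak with a score of 510, named for HMGB1 at its start, overlapped an end of USPL1, a SUMO protease gene. A peak with a score of 168, named for PFKM, covered the 250 bases upstream of SENP1, the gene of a SUMO protease. Among PML body components, a peak of score 61 named for MRPL40 lay 613 bp upstream of the RefSeq start of HIRA. A peak of score 59 named for CRTC3-AS1 lay within 1 kb upstream of the RefSeq start of the helicase gene BLM. With such peaks counted, 12 of the 44 genes had a peak within 1 kb of either end of the span, beside the 19.2% of protein-coding genes. By role they were 3 of 19 PML body components and 9 of 25 SUMO genes.

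Away from promoters, peaks named for PML body and protease genes were at repeats. All 11 peaks named for PML body components had a repeat at the centre, 7 of them an L1 element, with scores from 30 to 177. They include the peaks of SP100, SP110, SP140 and SP140L already described, from neighbouring genes on chromosome 2. All 7 peaks named for SUMO proteases were over repeats too. They included 2 of high score, both 625: over HERVK-int sequence at -15635 bp from the start of SENP2, and over HERVIP10FH-int sequence at -76748 bp from the start of DESI2. Of 13 peaks named for ligases, 4 were over repeats, 4 were in the promoter class and 1 was in exon 1 of RANBP2. The others were the intron peaks of ZMIZ1 without a repeat. Promoter and exon labels name no repeat, and 0 of the peaks named for PML body components and proteases were in the promoter class. The roles are therefore not alike in this count. The share over all peaks, promoter class included, was 64.4%, and the difference between roles was not tested.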

How the data were processed

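The deposited table lists peaks of the mTOR ChIP library with a score, a deposited annotation class, the nearest gene and the distance to its start. The submitters' processing notes name Trimmomatic 0.36, BWA 0.7.12, Picard 2.0.1, MACS2 2.1.1.20160309, HOMER 4.11.1 and hg38. The peak threshold, the treatment of reads that align to several places and the scale of the score were not stated there or in the labels. The authors deposited whole-number scores, which served only to describe and rank peaks.

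Gene spans came from RefSeq on GRCh38.p14, and promoters from the RefSeq table of the same build, which held 5 of the 8 members. The deposited gene identifiers of 99.7% of peaks matched. Genes were matched by identifier, promoter peaks found from the deposited distance and the width, and gaps measured between edges of peaks and spans. Genes named were all members, listed genes with a promoter peak and the genes that peaks inside members were named for, and up to 2 neighbours of a member promoter peak. Other listed genes were chosen after their values were seen. Members and lists were chosen with earlier results of these data known, and some genes of the pathway are not reported here. Rules were tested on simulated peaks. Alternatives changed the window, class, scores, repeats, span and naming. Whether the cell line shows its defining markers cannot be read from a peak list. The input library was not analysed here. Computation used matplotlib 3.10.9, scipy 1.17.1, pandas 2.3.3 and numpy 2.4.6 under Python 3.11.15.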

Additional observations from a re-analysis of the deposited data

How the results depend on the processing

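SUMO2 and PIAS1 had the promoter peaks in windows of 100 bp, in the deposited class, with most of the peak in the window, without repeat peaks and in the higher-scoring 10724 peaks. A window of 5 kb added SUMO3 and made 3 members, beside 20.3% of protein-coding genes. Among the 2147 top-scoring peaks SUMO2 was left, 1 member and 1 listed gene (background 1.58%), while the higher-scoring peaks gave 4 listed genes (background 7.45%). Members named as nearest gene numbered 3 in the higher-scoring peaks, 2 in the top-scoring peaks and 3 without repeat peaks, beside 26.7%, 7.02% and 23.1% of protein-coding genes. Members with a peak in the span numbered 7 with 10 kb flanks, where 47.6% of protein-coding genes had one and ATRX was the exception, and 1 in each of the same 3 peak sets, beside 20.4%, 5.22% and 21.4%. Listed genes named as nearest gene numbered 22 of 44, beside 41.7% of protein-coding genes. They numbered 13 within 10 kb of the start (background 24.2%), 5 in the top-scoring peaks (7.02%) and 8 without repeat peaks (23.1%). 2 counts were chosen after the data were seen. Peaks at either end of the span under any name gave 12 listed genes, against 7 with a promoter peak. These ends need not be starts, so the 12 are not all promoter peaks. RefSeq starts under any name gave 8 of the 33 listed genes with an entry, beside 19.2% of protein-coding genes with an entry. HIRA, BLM and SENP1 are among these 8. Of 37 alternative values 23 stayed within 1.5 times the reported value and 14 did not. The 23 include the scores of the SUMO2 and PIAS1 promoter peaks under other windows. Those could not change, because each gene has 1 such peak. The fall with fewer peaks follows from the smaller sets. The depth of the library is unknown, so a gene without a peak is a gene without a call in this list.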
